A study of Mus musculus with 3 samples.

Results

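CpG-poor promoters were taken as those of protein-coding genes with 15 or fewer CpG dinucleotides within 500 bp of the most upstream protein-coding start, counted in the mm9 mouse genome with the GENCODE vM1 gene models. Genes whose symbol begins with Olfr or Vmn, the olfactory and vomeronasal receptors, were left out. The rule gave 5183 of the 22342 protein-coding genes on the 19 autosomes and the X chromosome (23.2%), and no ChIP measurement was used to choose them. A further 15718 genes had more than 15 CpGs, and 1397 genes were CpG-poor but left out by name. The median member held 8 CpGs within 500 bp (interquartile range 5 to 12), and the median gene with more than 15 CpGs held 58.

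The 3 ChIP-Seq libraries, 1 per group, came from mouse embryonic stem cells (ESCs) and were used as lists of enriched regions called at a threshold of 1e-09. For the pair of H2A.Z libraries, WT and AP3, the cells were KH2-derived lines with a YFP fusion under a doxycycline-inducible CMV promoter, were sorted for YFP, carried a hairpin against the 3′ untranslated region of endogenous H2A.Z, and were immunoprecipitated through the tag with anti-GFP. AP3 carries the changes G92N, D97N and S98K, which put residues of the core histone H2A into the acidic patch of H2A.Z, and the H3K27me3 library has the genotype label WT. The sample label and the study's methods name H3K27me3 antibodies of different makers. The strain label of all 3 samples is V6.5, the lists hold positions without heights or reads, the depth behind them is unknown, and a ChIP list measures no expression, so the ESC label could not be checked against marker transcripts.

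Most housekeeping and many developmental genes in mammals start in CpG islands, stretches in which CpG dinucleotides have kept a high density and are usually unmethylated. Promoters outside islands belong mostly to genes used in 1 or a few differentiated tissues, and a TATA box is more common in them. H2A.Z is a histone variant that is loaded into nucleosomes flanking the start sites of CpG-island promoters in ESCs, while H3K27me3 is the mark set by Polycomb repressive complexes at silent developmental genes. "Called" here means that at least 1 bp of a list lay within 2 kb of the start.

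The sequence under the called regions is shown first, since CpG content defines the group. For the named members called in both H2A.Z libraries, in order of the bases covered by H2A.Z WT, the 150 bp at the centre of the H2A.Z WT region nearest the start is given where it met no annotated exon, 5′ to 3′ on the strand of the gene, with CpGs in capitals. Mst1 encodes a secreted protein of the hepatocyte growth factor family (chr9:107982563-107982712, + strand), Fam83h acts in enamel formation (chr15:75844101-75844250, − strand), Gm15557 is a gene model with no assigned function (chr2:155765701-155765850, + strand) and Slc11a1 is a metal transporter of macrophage phagosomes (chr1:74421963-74422112, + strand).
Mst1: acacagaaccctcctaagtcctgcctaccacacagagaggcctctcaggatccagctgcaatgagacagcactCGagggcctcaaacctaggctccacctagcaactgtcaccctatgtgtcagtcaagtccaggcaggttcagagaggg
Fam83h: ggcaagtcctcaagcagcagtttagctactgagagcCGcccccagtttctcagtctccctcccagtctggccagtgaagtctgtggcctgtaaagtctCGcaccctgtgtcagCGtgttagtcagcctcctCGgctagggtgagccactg
Gm15557: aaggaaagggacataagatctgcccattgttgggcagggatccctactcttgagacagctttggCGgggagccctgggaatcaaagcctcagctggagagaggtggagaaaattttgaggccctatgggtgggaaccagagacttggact
Slc11a1: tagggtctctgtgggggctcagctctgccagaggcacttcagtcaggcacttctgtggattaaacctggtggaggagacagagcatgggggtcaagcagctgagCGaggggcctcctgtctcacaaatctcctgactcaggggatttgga
Each of these stretches held 1 CpG apart from that of Fam83h, which held 4. Lpar5, a receptor for lysophosphatidic acid (chr6:125017713-125017862, + strand), and Pirt, a membrane protein of sensory neurons (chr11:66726026-66726175, + strand), were added after their values were seen, because H2A.Z AP3 covered 950 and 1000 bp of the H2A.Z WT region shown.
Lpar5: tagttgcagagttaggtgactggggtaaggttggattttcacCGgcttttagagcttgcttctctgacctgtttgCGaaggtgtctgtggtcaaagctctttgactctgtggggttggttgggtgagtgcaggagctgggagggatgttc
Pirt: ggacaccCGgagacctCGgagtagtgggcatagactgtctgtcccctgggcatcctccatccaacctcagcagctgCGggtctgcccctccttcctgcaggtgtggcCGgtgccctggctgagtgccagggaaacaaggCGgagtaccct
These held 2 and 5 CpGs. The centre of an H2A.Z WT region was therefore nearly free of CpGs at some members. It does not stand for all called bases of the window. At Mst1, 96 CpGs lay under 2667 bp of H2A.Z WT, and at Gm15557, 62 lay under 2050 bp. In these 2 genes H2A.Z AP3 covered 0 bp of the region shown and was called elsewhere in the window.

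The next 3 sequences show the other feature for which CpG-poor promoters are known. The 50 bp upstream of the start, with TATAAA in capitals, is given for Cyp1a1, an inducible cytochrome P450 (chr9:57545370-57545419, + strand), Il13, a cytokine of type 2 helper T cells (chr11:53448205-53448254, − strand), and Lor, loricrin of the cornified skin layer (chr3:91887065-91887114, − strand).
Cyp1a1: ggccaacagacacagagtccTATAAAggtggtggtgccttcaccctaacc
Il13: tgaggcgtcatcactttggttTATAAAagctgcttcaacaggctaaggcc
Lor: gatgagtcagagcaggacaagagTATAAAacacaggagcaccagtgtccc
The letters TATAAA, searched on both strands in these 50 bp, were present at 9.11% of members (95% Wilson interval 8.35 to 9.92), against 2.01% of genes with more than 15 CpGs and 3.93% of all genes. They were at 5.86% of the members with H2A.Z WT (4.61 to 7.41) and 9.98% of those without (9.09 to 10.9). Within the members of 13 to 15 CpGs the shares were 3.95% (2.45 to 6.32) and 7.99% (6.04 to 10.5), and within those of 0 to 3 CpGs they were 17.6% (3 of 17 members, 6.19 to 41.0) and 15.3% (12.8 to 18.3). In the bins between, they were at 8 of 106 called and 98 of 1096 uncalled members with 4 to 6 CpGs. With 7 to 9 CpGs the counts were 15 of 218 and 91 of 958, and with 10 to 12 they were 22 of 347 and 74 of 814. The share was thus lower in called members in each bin except that of 0 to 3 CpGs. The intervals of called and uncalled members overlapped in each bin, which does not show that the shares are equal. The difference at like CpG count was not tested. The letters GGGCGG, a GC box, searched on both strands in the 300 bp upstream, were at 6.56% of members, 56.7% of genes with more than 15 CpGs and 41.5% of all genes. They were at 14.2% of members with H2A.Z WT (12.2 to 16.4) and 4.52% of those without (3.93 to 5.20). CCAAT, searched in the same way, was at 39.6% of members and 39.0% of all genes, and at 33.5% and 41.2% of members with and without H2A.Z WT. GGGCGG contains a CpG, so its share moves with the count that defines the group, and a match of letters is not evidence of a bound factor.

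The first comparison asked how often each library was called at CpG-poor promoters. H2A.Z WT was called at 1093 of the 5183 members (21.1%, interval 19.999 to 22.2), against 76.5% of the genes with more than 15 CpGs and a background of 58.9% of all protein-coding genes. H2A.Z AP3 was called at 226 members (4.36%, 3.84 to 4.95), against 28.1% and a background of 20.8%. H3K27me3 was called at 159 members (3.07%, 2.63 to 3.57), against 23% and a background of 16.9%. All 3 libraries were therefore called less often at CpG-poor promoters, by more than the counting error. With 1 library per group, there was no estimate of how much cultures vary, and intervals treat genes as independent, although 273 members have a window that overlaps that of another member.

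Most members with H2A.Z AP3 or H3K27me3 also had H2A.Z WT, while most members with H2A.Z WT had neither. Of the 226 members with H2A.Z AP3, 191 (84.5%, 79.2 to 88.6) had H2A.Z WT. The share was 94.1% at genes with more than 15 CpGs, with a background of 93.6%. H2A.Z WT alone was called at 810 members (15.6%, against 30.1% of all genes), with H2A.Z AP3 at 160 (3.09%, against 12.9%), with H3K27me3 at 92 (1.78%, against 9.30%) and with both at 31 (0.598%, against 6.57%). H2A.Z AP3 alone was called at 35 members (0.675%, against 1.25% of all genes) and H3K27me3 alone at 36 (0.695%, against 0.958%). No member, and 0.085% of all genes, had these together without H2A.Z WT. No region of any list lay within 2 kb of 4019 members (77.5%), against 38.8% of all genes. The members without H2A.Z WT were mostly far from any H2A.Z WT region, with a median distance of 30402.5 bp from start to region. The absence of a call at an unknown depth is not evidence that H2A.Z was absent.

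The share called rose with the CpG count inside the group, as seen in the plot of calls by CpG count. H2A.Z WT was called at 2.56% of members with 0 to 3 CpGs (1.61 to 4.07), 8.82% with 4 to 6, 18.5% with 7 to 9, 29.9% with 10 to 12 and 41.3% with 13 to 15 (38.2 to 44.4). H2A.Z AP3 went from 0.151% to 9.68% and H3K27me3 from 0.905% to 4.79% over the same bins. The rise of H2A.Z WT was thus spread over the whole range of CpG counts. None of the 30 members with 0 CpGs had H2A.Z WT, which allows a share of up to 10% (3 counts of 30). On the 2 sides of the limit, H2A.Z WT was called at 42.6% of the 305 genes with exactly 15 CpGs and 48.2% of the 282 genes with exactly 16, H2A.Z AP3 at 10.8% and 16.7%, and H3K27me3 at 4.92% and 7.09%. Above the limit, H2A.Z WT rose to 83.3% at 36 to 50 CpGs and was at 80.1 to 81.7% beyond. H2A.Z AP3 rose to 32.8% at 36 to 50 CpGs and was at 26.5% above 100, and H3K27me3 was at 26% and 30.0% in these bins.

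**Figure D1:**
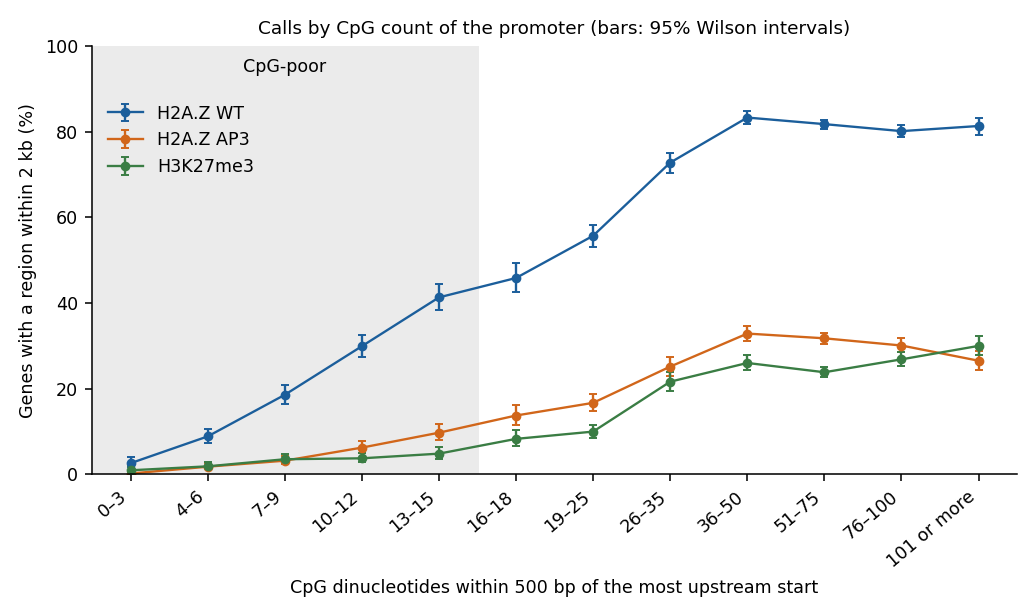
Percent of protein-coding genes with a region of each library within 2 kb of the start (vertical axis) by the number of CpGs within 500 bp of it (horizontal axis), with 95% Wilson intervals as bars, and Olfr and Vmn genes left out. The CpG-poor bins are shaded; H2A.Z WT rises from 2.56% to 41.3% across them, H2A.Z AP3 from 0.151% to 9.68% and H3K27me3 from 0.905% to 4.79%.

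The called members were also richer in G and C. Their median GC content within 500 bp was 50.6%, against 44.2% for members without H2A.Z WT and 58.4% for genes with more than 15 CpGs. Their median CpG count was 11, against 7 for members without a call. Members with the fewest CpGs and a call were Maml2, a coactivator of Notch signalling, with 1 CpG and 900 bp of H2A.Z WT, Gpr173, an orphan receptor, with 1 CpG and 1008 bp, Umod, the urinary protein uromodulin, with 1 CpG and 182 bp, BC007180, a gene model, with 1 CpG and 171 bp, and 2210404O09Rik, a gene model, with 2 CpGs and 200 bp. None of these 5 had a region within 500 bp of the start, the nearest being 642 bp away at Maml2 and 1830 bp away at BC007180. None of the 5 had H2A.Z AP3 or H3K27me3.

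The next comparison asked where the regions lay. Of the 1093 members with H2A.Z WT, 538 (49.2%, 46.3 to 52.2) had a region within 500 bp of the start, against 92.9% of the called genes with more than 15 CpGs and a background of 89.2%. The start base itself was covered at 226 called members (20.7%), against 46.2%. The median distance from the start to the nearest region was 519 bp at members and 20 bp at the other genes. In CpG-poor promoters a call within 2 kb was therefore often not a call at the most upstream start. When any protein-coding start of the gene was used for both the call and the distance, 889 of 1352 called members (65.8%) had a region within 500 bp. This rule calls more members, and its share at other genes is not given here. The called members had a median of 325 bp of H2A.Z WT in the window, against 625 bp.

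The downstream side held most of the signal. At 520 called members (47.6%, 44.6 to 50.5) H2A.Z WT lay only downstream of the start, at 245 (22.4%) only upstream and at 328 (30.0%) on both sides, whereas 63.0% of the other called genes had it on both sides. Of all H2A.Z WT bases at members, 31.1% lay upstream, against 35.3% at the other genes. The plot of coverage by distance shows this as a step: 1.18% of members were covered 988 bp upstream, 4.30% were covered 13 bp upstream, 4.92% were covered 87 bp downstream, and 3.92% were still covered 1012 bp downstream. Genes with more than 15 CpGs instead reached 49.4% at 187 bp downstream and had fallen to 10.6% by 1012 bp. The dip of H2A.Z AP3 at the start, from 5.98% at 288 bp upstream to 3.30% at 13 bp upstream in genes with more than 15 CpGs, had no visible counterpart at members, where only 16 members were covered at 13 bp upstream and 35 at 1012 bp downstream.

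**Figure D2:**
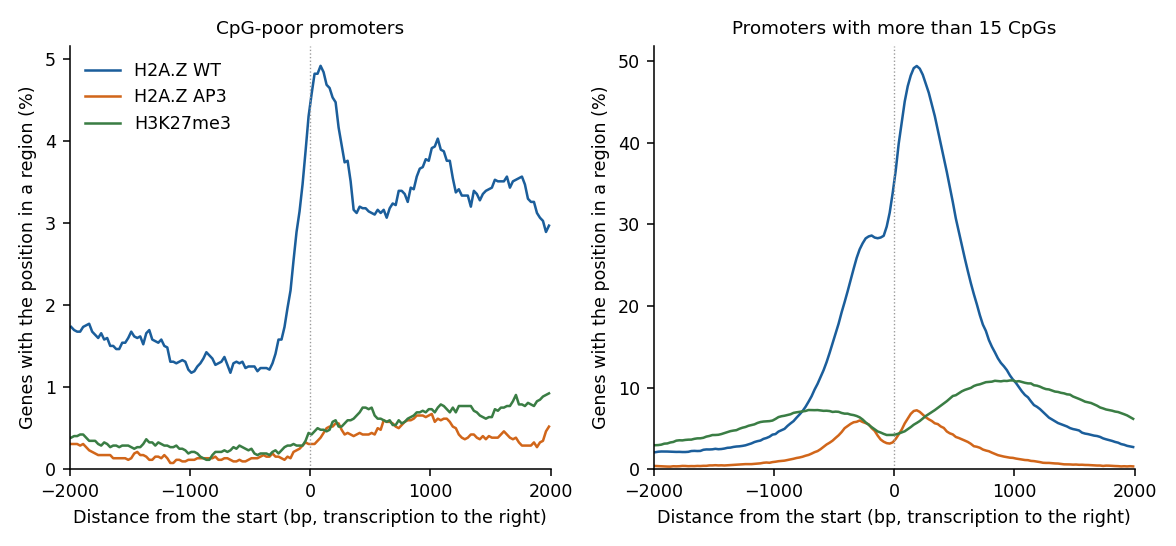
Percent of genes in which each position lay in a region (vertical axes, on different scales) by distance from the most upstream start in bins of 25 bp (horizontal axes), for CpG-poor promoters (left) and genes with more than 15 CpGs (right). H2A.Z WT at CpG-poor promoters peaks at 4.92% just downstream of the start and is still 2.97% at 1987 bp, while at the other genes it peaks at 49.4% and falls on both sides.

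The regions were then described by themselves. The windows of the members met 1464 H2A.Z WT regions with a median length of 275 bp. At the midpoint, 595 of them (40.6%) lay in an annotated exon, 465 (31.8%) in an intron and 404 (27.6%) between genes. Of the 1464, 753 (51.4%, 48.9 to 54.0) had 15 or fewer CpGs within 500 bp of their midpoint, so about as many regions at members lay in CpG-poor sequence as outside it. At genes with more than 15 CpGs the share was 4.73% of 15376 regions. Members' windows held 2.93 CpGs per 100 bp inside H2A.Z WT regions and 1.14 outside. At 88 called members no CpG lay under any H2A.Z WT base of the window. A CpG-rich start lay within 500 bp of 17.6% of the regions at members, against 82.8% at the other genes. An annotated start of any kind lay within 500 bp of 53.7%, against 83.1%. The called bases of CpG-poor promoters were thus richer in CpG than their surroundings, and poorer than the 6.19 CpGs per 100 bp of the called bases of the other genes.

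A CpG-rich sequence near a CpG-poor start accompanied many calls. Of the members, 377 had another annotated start with more than 15 CpGs within 2 kb, of the same gene or a neighbour, and 226 of these (59.9%) had H2A.Z WT. In the other 4806 members, H2A.Z WT was called at 867 (18%, 17 to 19.2), H2A.Z AP3 at 154 (3.20%) and H3K27me3 at 106 (2.21%). Leaving those members out thus lowered each share and kept most of the H2A.Z WT calls. A CpG-rich start lay near 20.7% of members with H2A.Z WT, 35.6% of those with H2A.Z WT and H2A.Z AP3 and 33.3% of those with H3K27me3, against 3.69% of members without H2A.Z WT.

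When the members were divided by the largest number of CpGs in any window of the same length that lay within 2 kb of the start, in steps of 100 bp, the shares spread further apart. Where no such window exceeded 15 CpGs, H2A.Z WT was called at 270 of 3222 members (8.38%, 7.47 to 9.39), H2A.Z AP3 at 1.18% and H3K27me3 at 14 members (0.435%, 0.259 to 0.728). With 16 to 30 CpGs the shares were 36.4%, 6.99% and 3.50%. With 31 or more, in 331 members, they were 69.2% (64.0 to 73.9), 22.4% and 26.6% (22.1 to 31.6). The plot by surroundings shows that 145 of the 159 members with H3K27me3 had a window above 15 CpGs, and that H3K27me3 was called less often than H2A.Z AP3 in the first and second groups and at an overlapping share in the richest.

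**Figure D3:**
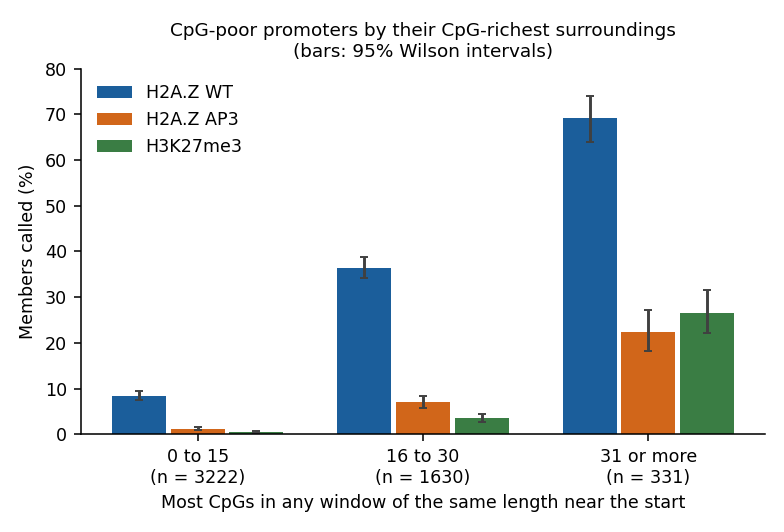
Percent of CpG-poor members called by each library (vertical axis) by the largest CpG count in a window of the same length near the start (horizontal axis, with the number of members), with 95% Wilson intervals as thin bars. H2A.Z WT goes from 8.38% to 69.2%, H2A.Z AP3 from 1.18% to 22.4% and H3K27me3 from 0.435% to 26.6%.

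Gene classes were defined by symbol and differed in how often they held H2A.Z WT. Beside each count stands a number at the CpG-matched rate. It is what the same members would give if each were called at the rate of all CpG-poor promoters with its own CpG count. This number is a description and not a test. The rate includes the 1738 unnamed gene models, called at 12.1%, so named genes tend to lie above it. The 1531 named genes in no class were called at 32.0%, against 25.4% at the CpG-matched rate. The 7 classes at the upper end of the plot of classes were muscle proteins, developmental transcription factors, matrix and adhesion proteins, transporters, ion channels, neurotransmitter and orphan receptors, and hormones and growth factors.

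Muscle proteins, which build and fuel the sarcomere, had H2A.Z WT at 25 of 55 members (45.5%, 33.0 to 58.5), against 14.7 at the CpG-matched rate. Counting a symbol that occurs under more than 1 gene identifier once gave 23 of 53. The most covered were Myl3, a myosin light chain of slow muscle and ventricle, with 1125 bp, Ldb3, a protein of the Z-disc, with 1101 bp, and Ckm, the muscle creatine kinase, with 1075 bp. Troponin C of slow and cardiac muscle, Tnnc1, had 575 bp, the cardiac myosin heavy chains Myh7 and Myh6 had 605 and 250 bp, and cardiac actin Actc1 had 150 bp. The genes were not called as a block, since Myh1, Myh4, Myl1, Myl2, Tnnt1 and Tnnt3 had no region. Of the 25, 3 had H2A.Z AP3 and none had H3K27me3, where the shares over all members with H2A.Z WT were 17.5% and 11.3%. Away from CpG-rich starts, 19 of 43 members of the class had H2A.Z WT.

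Developmental transcription factors had H2A.Z WT at 18 of 41 members (43.9%, 29.9 to 59.0), against 11.3 at the CpG-matched rate, H2A.Z AP3 at 7 and H3K27me3 at 9. The class is mostly CpG-rich, and these members are 10.6% of its genes. Tbx10, a T-box factor, had 1400 bp of H2A.Z WT and 475 bp of H2A.Z AP3, and the erythroid factor Klf1 had 1175 and 525 bp. Away from CpG-rich starts the class had 15 of 37. Tbx5, a factor of heart and forelimb, had 650 bp of H2A.Z WT, 25 bp of H2A.Z AP3 and 2372 bp of H3K27me3. Nr2f2, an orphan nuclear receptor of vessel and neural development, had 150 bp of H2A.Z WT and 2921 bp of H3K27me3. Gata4, a factor of heart and endoderm, had 25 and 997 bp. Hoxb3, which specifies hindbrain and axial identity, had 2276 bp of H3K27me3 and no H2A.Z WT, whose nearest region was 2536 bp away.

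Matrix and adhesion proteins had H2A.Z WT at 26 of 61 members (42.6%, 31 to 55.1), against 17.3 at the CpG-matched rate, and H3K27me3 at 10. The clustered protocadherins Pcdhb, adhesion proteins of neurons that are encoded side by side, gave 11 of the 26, and without them the class had 15 of 50 (30.0%, 19.1 to 43.8). Singled out after their values were seen, all 11 Pcdhb members had H2A.Z WT, covering 322 to 581 bp (median 509 bp) of the window. The nearest region lay 1420 to 1679 bp from the start in each of them and in an exon at its midpoint, over 18 to 35 CpGs. H3K27me3 was called at 7 of them and H2A.Z AP3 at 1, Pcdhb9, with 34 bp. These genes are close paralogs, and whether reads that match several copies were kept is not given in the sources used here. Outside them, Spon2, a secreted matrix protein, had 2551 bp and Emilin1, an elastic fibre protein, had 1500 bp with 950 bp of H2A.Z AP3.

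The remaining 4 classes were called at 34.2 to 38.3% of their members. Transporters had H2A.Z WT at 41 of 107 members (38.3%, 29.7 to 47.8), against 28.3 at the CpG-matched rate. Slc11a1 had 1802 bp of H2A.Z WT and 752 bp of H2A.Z AP3, and Slc6a12, a transporter of betaine and GABA, had 1325 and 25 bp. Ion channels had 24 of 65 (36.9%, 26.2 to 49.1) against 17.4, led by the chloride channel protein Clic3 with 1933 bp and the water and glycerol channel Aqp7 with 1575 bp. Neurotransmitter and orphan receptors had 34 of 94 (36.2%, 27.2 to 46.2) against 24.9. Hormones and growth factors had 13 of 38 (34.2%, 21.2 to 50.1) against 8.74, led by Igfals, the subunit that stabilises circulating insulin-like growth factor complexes, with 1875 bp. Igf2, an imprinted growth factor, had 1130 bp of H3K27me3 and no H2A.Z WT within the window. The interval of the ion channels and that of the hormones reached down to the CpG-matched rate, as did that of matrix and adhesion proteins without Pcdhb, and those of the other classes did not. Of the 7 classes, only muscle proteins had an interval that lay above 32.0%, the share of the named genes in no class. Among genes with more than 15 CpGs, muscle proteins were called at 70.5%, below the 76.5% of all such genes. The remaining upper classes were at 80.7 to 89.9% there.

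**Figure D4:**
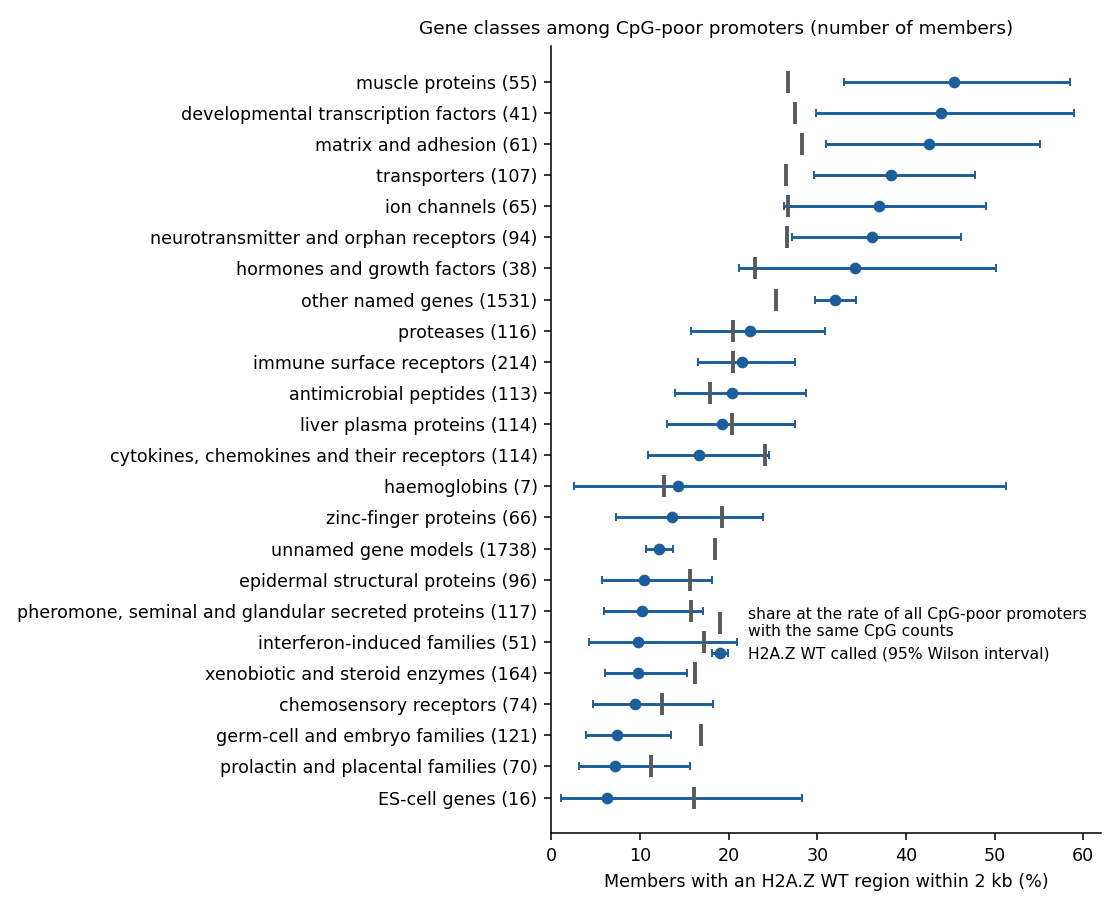
Percent of the CpG-poor members of each gene class with H2A.Z WT within 2 kb of the start (points, with 95% Wilson intervals) and the percent at the rate of all CpG-poor promoters with the same CpG counts (vertical ticks), with the number of members in brackets. Muscle proteins (45.5%), developmental transcription factors (43.9%) and matrix and adhesion proteins (42.6%) are at the top, and germ-cell families (7.44%), prolactins and placental proteins (7.14%) and ES-cell genes (6.25%) at the bottom.

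Immune and liver genes were close to the group as a whole. Immune surface receptors had H2A.Z WT at 46 of 214 members (21.5%), proteases at 26 of 116 (22.4%), antimicrobial peptides and the families grouped with them at 23 of 113 (20.4%) and liver plasma proteins at 22 of 114 (19.3%), and each interval held the CpG-matched rate. Single members of these classes were among the most covered. F10, coagulation factor X of the liver, had 2651 bp, Siglec1, a sialic acid receptor of macrophages, had 2025 bp, and Apoa5, a regulator of plasma triglycerides, had 1741 bp. Prss33 and Prss34, serine proteases of leukocytes, had 2525 and 1800 bp. Cytokines, chemokines and their receptors had 19 of 114 (16.7%, 10.9 to 24.6) against 27.4 at the CpG-matched rate, with Il17b at 2125 bp and Il13 at 1300 bp, the latter with 200 bp of H2A.Z AP3 and 550 bp of H3K27me3.

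At the lower end were families of many related genes and the enzymes that process drugs and steroids. Xenobiotic and steroid enzymes had H2A.Z WT at 16 of 164 members (9.76%, 6.09 to 15.3) against 26.6 at the CpG-matched rate, led by Cyp1a1 with 1075 bp. Germ-cell and embryo families had 9 of 121 (7.44%, 3.96 to 13.5) against 20.5, led by Stra8, which acts at entry into meiosis, with 1813 bp and 575 bp of H2A.Z AP3. Pheromone and secreted gland proteins had 12 of 117 (10.3%, 5.96 to 17.1) against 18.5, and the interval included the matched rate. The same held for epidermal structural proteins with 10 of 96 (10.4%), interferon-induced genes with 5 of 51 (9.80%), chemosensory receptors with 7 of 74 (9.46%), the prolactin and placental families with 5 of 70 (7.14%) and zinc-finger proteins with 9 of 66 (13.6%). Gene models without an established name had 211 of 1738 (12.1%, 10.7 to 13.8) against 320.6, and the named genes in no class had 490 of 1531 (32.0%, 29.7 to 34.4) against 388. Of all genes with more than 15 CpGs, 76.5% were called. In that range germ-cell families (55.4%), unnamed models (59.9%) and pheromone and gland proteins (64.1%) were also low. Xenobiotic enzymes were at 80.4%, zinc-finger proteins at 77.7%, epidermal proteins at 76.8% and interferon-induced genes at 73.9%. The prolactin and chemosensory classes had only 7 and 6 genes there. Haemoglobins had 1 of 7, the embryonic globin Hba-x, with 950 bp of H2A.Z WT, 675 bp of H2A.Z AP3 and 825 bp of H3K27me3.

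Members were also divided into families sharing the letters of a symbol, a division added after the classes had been seen. Of the 50 stems with at least 10 members, Pcdhb was called throughout, Lcn (lipocalins) at 6 of 12, Tmem at 14 of 30, Gpr at 17 of 38, Slc at 30 of 68 and Prss at 10 of 23. In 11 stems none of the 155 members was called. They included all 26 Prl (prolactin family), all 21 Mup (major urinary proteins), 16 Sprr (cornified envelope proteins), 13 Psg (pregnancy-specific glycoproteins), 12 Defa (intestinal defensins) and 11 Ifna (type I interferons). Their median CpG counts ran from 3 in Defa and Ifna to 6 in Mup, below the median of 8 over all members. H2A.Z WT was called at 2.56% of all members with 0 to 3 CpGs and 8.82% of those with 4 to 6. The intervals reached up to 12.9% in Prl, 15.5% in Mup and 25.9% in Ifna, and each held these shares. Taken singly, these stems were thus not set apart from members of like CpG count. The part of reads that match several copies was not tested. As a comparison, the CpG-poor Olfr and Vmn genes left out of the group had H2A.Z WT at 30 of 1397 (2.15%, 1.51 to 3.05).

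ES-cell genes were those known from undifferentiated ESCs and the early embryo. Of the 57 genes on the list, 16 were CpG-poor, and H2A.Z WT was called at 1 of these (6.25%, 1.11 to 28.3). The count at the CpG-matched rate was 2.57 (16.1%), which the interval included. Of the 41 with more CpGs, 18 were called (43.9%), against 76.5% of all genes with more than 15 CpGs. The called gene was Dnmt3l, a cofactor of de novo DNA methylation, with 15 CpGs, 1550 bp of H2A.Z WT and neither of the other libraries. Aire starts nearby with more than 15 CpGs. Nr5a2, a nuclear receptor, and Spp1, osteopontin, lay just outside, with H2A.Z WT 2004 and 2087 bp from the start. Dppa1, Fbxo15, the 5 Tcl1b genes and the 5 Zscan4 genes, which mark a transient state of ESCs that resembles the early embryo, had none within 20909 bp. Among the Zscan4 genes the nearest region was 366424 bp away at Zscan4b and 660020 bp away at Zscan4e. Zscan4b, Zscan4c, Zscan4e and Zscan4f carry TATAAA in the 50 bp upstream, and the sequences of the first pair show how alike the copies are.
Zscan4b (chr7:11490400-11490449, − strand): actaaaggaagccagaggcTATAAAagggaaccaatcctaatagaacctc
Zscan4c (chr7:11591021-11591070, + strand): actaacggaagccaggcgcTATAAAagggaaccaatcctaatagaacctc

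The members with the most H2A.Z WT gave the pattern of single genes. The 10 most covered had 2125 to 2925 bp in a window of 2 kb on each side, and in 9 of them a region covered the start. 2310007B03Rik, a gene model (start chr1:95057525, − strand), had 2925 bp of H2A.Z WT and 125 bp of H2A.Z AP3 with 12 CpGs. Mst1 had 2667 and 1600 bp, and Rnf123 starts nearby with more than 15 CpGs. Cryab, a small heat shock protein of lens and muscle (start chr9:50560863, + strand), had 2625 bp of H2A.Z WT, 300 bp of H2A.Z AP3 and 200 bp of H3K27me3, with the related Hspb2 starting nearby in CpG-rich sequence. Broad H2A.Z was thus found both beside CpG-rich starts and away from them. F10, Spon2, Prss33, Smyd1 (a methyltransferase of heart and skeletal muscle, 2400 bp) and Il17b had no H2A.Z AP3, although their H2A.Z WT coverage was like that of the others, and Ptpn7, a phosphatase of blood cells, had 2225 and 875 bp.

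**Figure D5:**
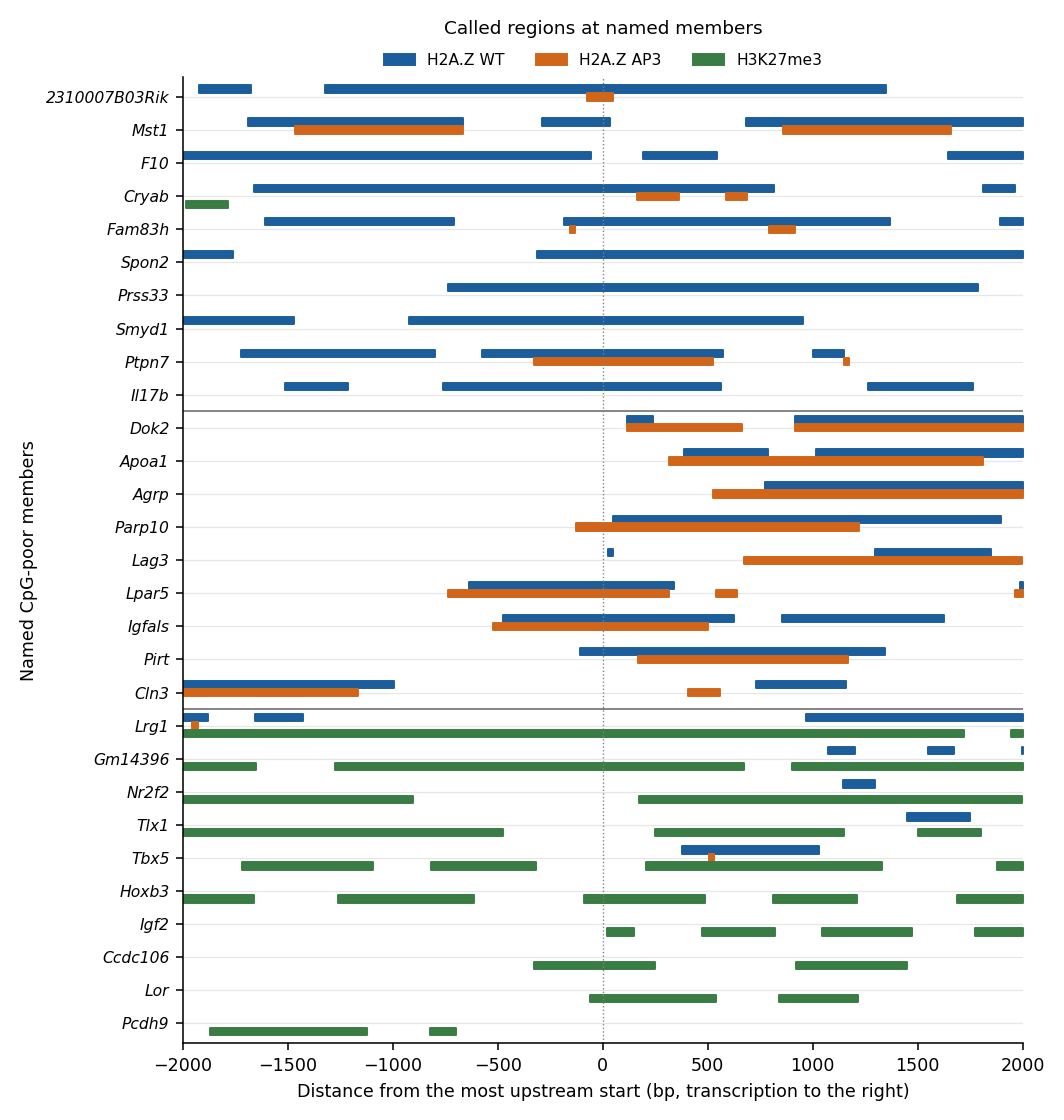
Positions of the called regions of each library (coloured bars) within 2 kb of the start (horizontal axis) at the members with the most H2A.Z WT (top group), the most H2A.Z AP3 (middle group, those not already shown) and the most H3K27me3, with and without H2A.Z WT (bottom group). H2A.Z AP3 mostly lies over H2A.Z WT. The bottom group was chosen by its H3K27me3 bases, and part of it for having no H2A.Z WT. That H3K27me3 covers more bases than H2A.Z WT in this group follows largely from the choice.

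H2A.Z AP3 was compared with H2A.Z WT at the members that had both proteins called. The mutant was found at 191 of the 1093 members with H2A.Z WT (17.5%, 15.3 to 19.8), against 34.5% of the other genes with H2A.Z WT and a background of 33%. The H2A.Z AP3 bases at members came to 12.1% of the H2A.Z WT bases, against 15.2% at the other genes. The members with both had a median of 700 bp of H2A.Z WT and 200 bp of H2A.Z AP3, and those with H2A.Z WT and no H2A.Z AP3 had a median of 283.5 bp of H2A.Z WT. H2A.Z AP3 was thus called where the H2A.Z WT regions were longer, and its share of the H2A.Z WT calls was lower at CpG-poor promoters.

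In 22 of the 191 members H2A.Z AP3 covered more bases than H2A.Z WT. The same share over all genes is not given here, so it is not known whether this is particular to CpG-poor promoters. The 22 included 5 of the 10 members with the most H2A.Z AP3, a ranking that favours such members. Dok2, an adaptor protein of blood cells (start chr14:71174111, + strand), had 1636 bp of H2A.Z AP3 and 1211 bp of H2A.Z WT. Apoa1, the main protein of high-density lipoprotein, had 1500 and 1388 bp, and Agrp, a hypothalamic peptide that drives feeding, had 1478 and 1228 bp. Lag3, an inhibitory receptor of T cells, had 1325 and 575 bp, and Lpar5 had 1188 and 988 bp. Each of these genes has 7 to 14 CpGs within 500 bp of its start. Parp10, an ADP-ribosyltransferase, had 1350 bp of H2A.Z AP3 and 1850 bp of H2A.Z WT, Pirt had 1000 and 1450 bp, and Cln3, a lysosomal membrane protein, had 981 and 1431 bp. A longer call does not show more bound protein, since the depths of the lists are unknown.

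Calls of H2A.Z AP3 at members were uneven over the chromosomes. On chromosomes 6 and 8, which were singled out because the H2A.Z AP3 list as a whole is dense there, it was called at 47 of 551 members (8.53%), and without them at 179 of 4632 (3.86%). H2A.Z WT was also called more often there, at 26.3% of members against 20.5% without these chromosomes. Among members with H2A.Z WT, the shares with H2A.Z AP3 were 30.5% on chromosome 6 and 27% on chromosome 8, against 5.26 to 24.3% on the other 17 autosomes (median 16.4%). Without chromosomes 6 and 8, H2A.Z AP3 was at 15.7% of members with H2A.Z WT. Of the 22 members with more H2A.Z AP3 than H2A.Z WT, 9 lay on chromosomes 6 and 8, as did 42 of the 191 members with both. Agrp lies on chromosome 8, and Lag3 and Lpar5 lie on chromosome 6. The part of these chromosomes in the values for single genes was not tested. On the X chromosome, H2A.Z WT was called at 15 of 324 members (4.63%), H2A.Z AP3 at 2 and H3K27me3 at 0, and the autosomes ranged from 9.55 to 33.2% for H2A.Z WT. Shares over all genes by chromosome are not given here. It is thus not known whether these differences between chromosomes are particular to CpG-poor promoters.

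H3K27me3 was compared with H2A.Z last. It was called at 123 of the 1093 members with H2A.Z WT (11.3%, 9.51 to 13.3), against 28.5% of the other genes with H2A.Z WT and a background of 26.9%. In the opposite direction, 77.4% of the members with H3K27me3 had H2A.Z WT (70.3 to 83.2), against 94.6% of the other genes with H3K27me3. H2A.Z AP3 was at 31 of the 123 members with both (25.2%, 18.4 to 33.5) and at 160 of the 970 with H2A.Z WT and no H3K27me3 (16.5%, 14.3 to 19.0). Over all genes these shares were 41.4% and 30.0%, with the same direction. The intervals at members overlapped, and the difference between the shares was not tested. H3K27me3 covered a median of 325 bp at the members where it was called, against 975 bp at the other genes.

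The members with the most H3K27me3 are regulators of development and single genes of other kinds. Lrg1, a secreted glycoprotein (start chr17:56261369, − strand), had 3776 bp of H3K27me3, 1376 bp of H2A.Z WT and 25 bp of H2A.Z AP3. Gm14396, a gene model, had 3401 bp of H3K27me3 and 252 bp of H2A.Z WT, and Tlx1, a homeobox factor needed for the spleen, had 2725 and 300 bp. At the 5 members with the most H3K27me3, which include Nr2f2 and Tbx5, the CpG-richest window near the start held 32 to 68 CpGs. Of the members with H3K27me3 and no H2A.Z WT, Hoxb3 and Igf2 are given above, Ccdc106 had 1100 bp, Lor had 975 bp and Pcdh9, a protocadherin of neurons, had 875 bp. The nearest H2A.Z WT region lay 2275 bp from the start at Pcdh9, 2314 bp at Lor and 4154 bp at Ccdc106, and a median of 4083 bp away over the 36 such members. They were thus closer to H2A.Z WT than the other members without a call. Cyp1a1, Krt7 (a keratin of simple epithelia) and Nlrp6 (an innate immune sensor of the gut) had H3K27me3 beside H2A.Z WT, with 256, 484 and 2201 bp of H3K27me3.

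The stricter lists gave a view of how firmly the calls stood. Of the members with H2A.Z WT, 906 (82.9%, 80.5 to 85.0) also had a region of the 1e-12 list, against 95% of the other called genes and a background of 94%. For H2A.Z AP3 the share was 69.9% (63.6 to 75.5), against 67.7%, and for H3K27me3 77.4% (70.3 to 83.2), against 85.8%. A larger part of the H2A.Z WT calls at CpG-poor promoters was therefore lost at the stricter threshold, while the H2A.Z AP3 shares of members and other genes could not be told apart by their intervals.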

How the data were processed

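The 3 libraries were single samples of ESCs: anti-GFP ChIP of YFP-tagged H2A.Z WT, the same for H2A.Z AP3, and H3K27me3 ChIP. Per the submitters' processing notes and the study's methods, the authors aligned reads to mm9 with Bowtie 0.12.3, extended them, counted them in bins of 25 bp and kept bins past a Poisson threshold and a minimum fold over input. The deposited lists, 2 per library, called at 1e-09 and 1e-12, hold region coordinates (start and end), with no height, read or score. Depth is unknown, and the treatment of reads with several matches is not given in the sources used here.

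The most upstream start over protein-coding transcripts of GENCODE vM1 was used for 22342 of 22380 protein-coding genes. Of the others, 8 had no protein-coding transcript and 30 lay on the Y chromosome or the mitochondrial genome. CpGs were counted in the mm9 sequence from 500 bp before to 500 bp after the start, and a gene was called when at least 1 bp of a list lay within 2000 bp. With 1 library per group no test between conditions was possible, and shares are given with 95% Wilson intervals, which cover counting error only. Gene classes were lists of symbols or symbol stems, so a class can hold a gene of another function, such as Pirt among the immune surface receptors or Pla2g3 among the antimicrobial peptides.

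The members and lists were chosen with earlier results of these data known, and the stem families were added after the classes had been seen. Genes were named by these rules: the 10 members with the most H2A.Z WT bases, the 10 with the most H2A.Z AP3, the 5 with the most H3K27me3 and the 5 with the most H3K27me3 and no H2A.Z WT, the 2 called members of each class with the most H2A.Z WT, each ES-cell gene, the 5 called by all 3 libraries with the most H2A.Z WT, and the 5 with H2A.Z WT and the fewest CpGs, with ties broken by symbol. The other muscle genes, Klf1, Gata4 and the Pcdhb genes were named after their values were seen. Some genes that the rules name are not reported here. Alternatives were the 1e-12 lists, either list, other starts, windows, CpG limits and minimum lengths, and leaving out groups of members or chromosomes. The code was tested on simulated data. Python 3.11.15, NumPy 2.4.6, pandas 2.3.3, SciPy 1.17.1, Matplotlib 3.10.9, pysam 0.24.0 and samtools 1.23.1 were used.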

Additional observations from a re-analysis of the deposited data

Results flagged for a closer look

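The 1e-12 list of a library was not used for the main calls, and it held regions at members that had no region of the 1e-09 list of the same library. H2A.Z WT had 53 such members, 5.53% of the 959 members with a region of its 1e-12 list, with a median of 125 bp in the window. Among them were Ptprv, a receptor-type phosphatase, Rac2, a GTPase of blood cells, Cyp1a2, a liver cytochrome P450, Slc12a1, the sodium, potassium and chloride transporter of the kidney, and Angptl6, an angiopoietin-like protein. H2A.Z AP3 had 42, 21% of 200, with a median of 175 bp, among them Gpr84, a fatty acid receptor of myeloid cells, E230028L10Rik, Gm11037, 4933415A04Rik and Akap6, an anchoring protein of heart muscle. H3K27me3 had 1 of 124. At members, the 1e-12 lists were thus not subsets of the 1e-09 lists.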

How the results depend on the processing

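The shares of members with a call were 21.1% for wild-type H2A.Z, 4.36% for H2A.Z AP3 and 3.07% for H3K27me3, those of H2A.Z AP3 and H3K27me3 among members with H2A.Z WT were 17.5 and 11.3%, and the share of called members with H2A.Z WT within 500 bp was 49.2%. In this order, where a value moved beyond its interval, counting calls at any protein-coding start of the gene gave 26.1, 6.39, 4.69, 22, 15.8 and 65.8%. A window of 1 kb gave 14.8, 2.68, 1.91, 14.9 and 6.67%, and one of 5 kb gave 31.7, 8.64, 5.17, 24.9 and 14.5%. A limit of 20 CpGs gave 26.7, 6.4 and 4.19% for the libraries, 20.7% for H2A.Z AP3 among members with H2A.Z WT and 57.7% within 500 bp. A limit of 10 CpGs gave 12.8 and 2.51% for the H2A.Z libraries, 15.8% for H3K27me3 among members with H2A.Z WT and 41.1% within 500 bp. At least 100 bp of overlap gave 18.5, 3.24, 2.55 and 14.5%, and 45.4% within 500 bp. Without members near a CpG-rich start the values were 18, 3.20, 2.21, 14.2 and 8.77%. Keeping Olfr and Vmn genes gave 17.1, 3.54 and 2.43%, and leaving out unnamed gene models gave 25.6, 5.57 and 3.63%. The 1e-12 lists gave 18.5% for H2A.Z WT and 2.39% for H3K27me3, and either list gave 5.17% for H2A.Z AP3 and 20.3% for H2A.Z AP3 among members with H2A.Z WT. The cause of these moves was not tested beyond what each alternative changed by construction.

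Taking the start over all transcripts, or leaving out chromosomes 6 and 8, kept all 6 values within their intervals. Leaving out a replicate was not possible with 1 library per group. No paired analysis was possible because no group has more than 1 library. The unknown depth of the lists limits every absence of a call, and lengths of regions do not measure how much protein was bound.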
